A study of Mus musculus with 3 samples.

Results

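The liver X receptors (LXRs) are nuclear receptors that switch on the genes by which a macrophage disposes of cholesterol, and 10 genes of this system were examined in chromatin-bound RNA. They were listed by symbol: the receptor genes Nr1h2 (LXRβ) and Nr1h3 (LXRα), and the target genes Abca1, Abcg1, Apoe, Pltp, Mylip, Srebf1, Lpcat3 and Scd2. All 10 were found among the 55536 annotated genes of the deposited tables. The cells were bone-marrow-derived macrophages, primary cells grown from the marrow of C57BL/6J mice. They had been given Lipid A, the lipopolysaccharide anchor that TLR4 senses, at 100 ng/ml for 12 h, kept for 12 h after its removal, and given 100 ng/ml again for 15 min before the chromatin was isolated. Total RNA of that fraction, with ribosomal RNA depleted, was sequenced in 1 group of 3 libraries, numbered as biological replicates 1, 2 and 3. No untreated or singly treated cells were analysed here, so the values below are levels and spreads, not responses. All 3 libraries carry the same donor identifier and nothing in the labels names separate animals, so part of the spread between them may be technical.

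Each LXR pairs with a retinoid X receptor (RXR) and is activated by oxysterols, oxidised forms of cholesterol that accumulate when a cell holds more cholesterol than it needs. Without ligand, the pair holds corepressors at its target genes, and ligand exchanges them for coactivators. In macrophages, the targets export cholesterol to lipoproteins, restrict its uptake and adjust the fatty acids of membranes. RNA on chromatin consists largely of transcripts that are being made or have not yet been released, so its level is closer to transcription than the level of mature mRNA is, and it holds introns that mature mRNA lacks.

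LXR-RXR pairs bind a direct repeat of the half-site AGGTCA with 4 bases between the copies. Promoter windows from 250 bases before to 50 bases after the start (RefSeq, GRCm38.p6, the same reference assembly as mm10) were listed for 8 of the 10 genes, 13 windows in all. Abcg1 and Scd2 were not listed. Windows were searched on both strands for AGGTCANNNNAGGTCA with up to 3 mismatches, and 2 of the 13 held a match: that of Abca1, and that of the downstream start of Srebf1. This is a loose search, met by 7189 of 32851 windows of all genes (21.9%), and a match describes letters, not a binding site. The sequences are shown because the matches of these 2 windows were nearly the same. Capitals mark the match, which lies on the strand opposite to the gene and is therefore written as its reverse complement.
Abca1, chr4:53159846-53160145, minus strand: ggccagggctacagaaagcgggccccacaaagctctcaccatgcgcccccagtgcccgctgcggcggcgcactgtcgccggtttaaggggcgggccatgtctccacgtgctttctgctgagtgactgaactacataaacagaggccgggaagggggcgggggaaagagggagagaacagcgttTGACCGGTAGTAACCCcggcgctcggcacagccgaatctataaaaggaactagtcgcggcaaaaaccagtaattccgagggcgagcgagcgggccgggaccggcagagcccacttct
Srebf1 downstream start, chr11:60210422-60210721, minus strand: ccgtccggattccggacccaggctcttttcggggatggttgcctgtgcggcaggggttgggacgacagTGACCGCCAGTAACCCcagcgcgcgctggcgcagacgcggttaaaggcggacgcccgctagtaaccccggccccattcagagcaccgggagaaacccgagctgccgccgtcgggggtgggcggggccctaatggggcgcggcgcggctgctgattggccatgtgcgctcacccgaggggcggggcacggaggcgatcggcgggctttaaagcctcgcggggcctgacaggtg
Fasn, chr11:120824498-120824797, minus strand: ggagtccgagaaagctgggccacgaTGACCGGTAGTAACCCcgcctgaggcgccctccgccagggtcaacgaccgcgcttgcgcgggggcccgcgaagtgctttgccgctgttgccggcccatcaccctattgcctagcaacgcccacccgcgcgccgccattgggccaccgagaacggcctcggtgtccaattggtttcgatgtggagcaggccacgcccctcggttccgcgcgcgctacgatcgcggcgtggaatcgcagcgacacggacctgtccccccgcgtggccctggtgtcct
Read 5′ to 3′ on its own strand, the Abca1 match was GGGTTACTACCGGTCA, from 67 to 52 bases upstream of the start. The Srebf1 match was GGGTTACTGGCGGTCA, from 182 to 167 bases upstream. They had 14 of 16 letters in common, GGGTTACTNNCGGTCA. On either strand these letters occurred in 3 of 32851 windows (0.00913%). They were read from 2 of these 3 windows, so their presence in those is no finding. Other strings of 14 letters were not counted, so the small number is no sign of a special sequence. The third window was that of Fasn, the fatty acid synthase gene, whose 16 letters from 225 to 210 bases upstream were identical to those of Abca1. The other windows of Srebf1, Nr1h2, Nr1h3, Apoe, Lpcat3, Mylip and Pltp held no match with up to 3 mismatches.

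All 10 genes were readily measured. Levels are given in TPM, a gene's count per transcript length, scaled so that every library has the same total, from the alignment-based gene table unless stated otherwise. The means of all 10 reached 1 TPM, as did those of 48.4% of 22028 protein-coding genes. Their median level was 5.67 ± 0.12 (log2(TPM + 1), SD, n = 3), against 3.43 ± 0.03 for the 11755 detected protein-coding genes (mean count of at least 10). The lowest, Lpcat3, lay at percentile 64.4 of those genes and the highest, Abca1, at percentile 96.2. The library totals were 14609979, 17423948 and 24162551 expected counts in replicates 1, 2 and 3, of which these genes took 0.146, 0.195 and 0.155%. The labelled cell type was checked by its markers. All 7 macrophage markers were above 1 TPM, with sums of 811, 839 and 746 TPM. Markers of other cells were near 0: 0 of 6 neutrophil, 1 of 6 dendritic (Zbtb46), 0 of 6 lymphocyte, 0 of 6 stromal or adipocyte, 0 of 4 erythroid and 1 of 4 liver markers (Apoa2) reached a mean of 1 TPM. The sum of any of these lists stayed at or below 3.07 TPM in each library, and at or below 19.6 TPM in the read-based table, where Apoa2 and Cd3d led. Elane, Cd3e, Nkg7, Pdgfra, Adipoq, Hba-a1, Alb and Cyp7a1 had 0 counts in all libraries. In bulk RNA, fewer cells of a type and less RNA per cell cannot be told apart.

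**Figure D1:**
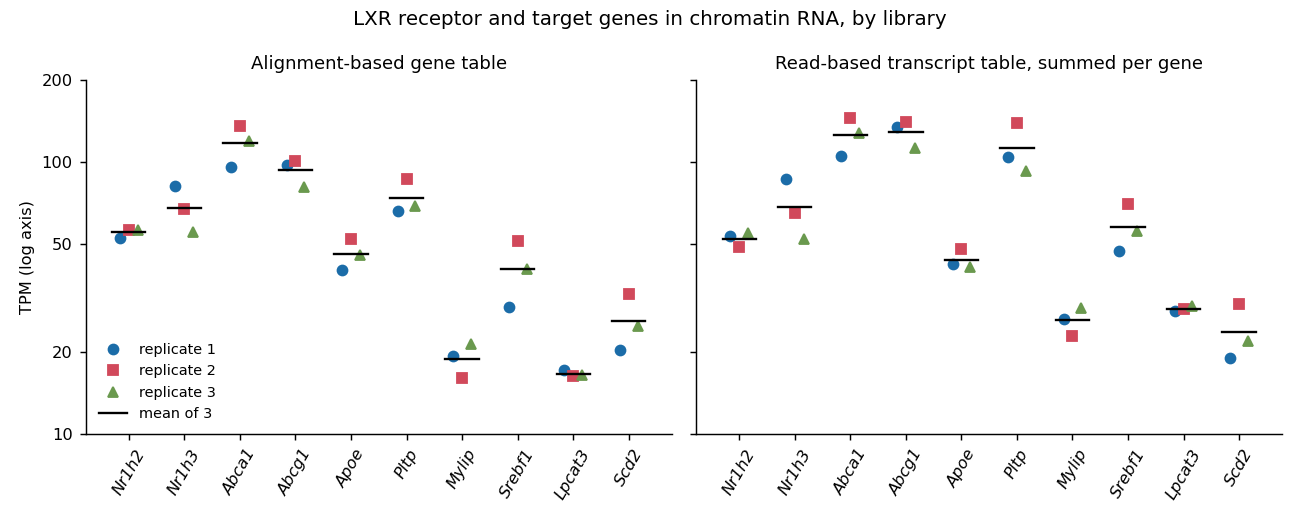
TPM (log axis) of the 10 genes in replicates 1 to 3 from the alignment-based gene table (left) and from the read-based transcript table summed per gene (right), with black lines at the means. Abca1 and Abcg1 have means of 117 and 93.0 TPM at left and of 125 and 129 TPM at right, while Lpcat3 and Mylip lie between 15.99 and 29.6 TPM.

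The receptors were both expressed, at similar levels. Nr1h2 (ENSMUSG00000060601.13, chr7:44549616-44553951, minus strand, mm10) encodes LXRβ, the form found in most tissues, and had 52.32, 56.21 and 56.23 TPM from 626, 760 and 1034 counts in replicates 1, 2 and 3. Its libraries differed by at most 1.07-fold, the second smallest spread of the 10 genes. Nr1h3 (ENSMUSG00000002108.10, chr2:91184061-91202834, minus strand) encodes LXRα, which is enriched in macrophages, liver, intestine and fat, and had 81.47, 66.92 and 55.09 TPM from 1525, 1533 and 1640 counts. The Nr1h3 level was highest in replicate 1 and lowest in replicate 3, a 1.48-fold range, and this held on all 5 scales examined: TPM, read-based TPM, TPM rescaled without very short RNAs, and counts scaled by TMM or by DESeq2's size factors. The ranges of the receptors overlapped. Nr1h3 exceeded Nr1h2 by 1.56-fold in replicate 1 and 1.19-fold in replicate 2, and was 0.980 times as high in replicate 3. The mean log2 ratio of 0.29 ± 0.34 (SD, n = 3) was smaller than its spread and was 0.11 without replicate 1, and the read-based table gave 0.35 ± 0.39. A sign-flip test over 3 libraries cannot give an exact 2-sided p below 0.25, so no p is given.

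Much of the chromatin RNA assigned to the receptors was assigned to transcripts annotated with a retained intron. For Nr1h3 these transcripts had 62.5, 57.5 and 54.8% of the gene's TPM (58.3% ± 3.92, SD, n = 3), and for Nr1h2 40.5, 46.4 and 42.0% (42.9% ± 3.09). The read-based table gave 44.9% and 45.2%. The leading Nr1h3 transcript was Nr1h3-208, with 31.38, 23.76 and 20.18 TPM, above the main coding form Nr1h3-201 at 11.00, 11.54 and 8.21 TPM in all 3 libraries. In counts, which are not scaled by length, Nr1h3-208 also led, with 696, 646 and 697 counts or 43.4% of the gene. In Nr1h2 the leading transcript was a short coding model of 2 exons, Nr1h2-212 (18.84, 15.73 and 17.43 TPM), followed by the retained-intron transcripts Nr1h2-205 (10.99, 10.01 and 10.72 TPM) and Nr1h2-208 (6.54, 6.46 and 7.47 TPM).

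Nr1h3-208 keeps 2 introns of Nr1h3-201 whole: the fifth, of 97 bases (chr2:91190642-91190738), and the sixth, of 177 bases (chr2:91190285-91190461). Nr1h2-208 keeps the sixth intron of Nr1h2-201, of 102 bases (chr7:44551498-44551599), and Lpcat3-208 keeps the tenth intron of Lpcat3-201, of 73 bases (chr6:124703154-124703226, plus strand). These are shown as the stretches by which the intron-keeping and the spliced forms differ there; reads outside them can be common to both. Sequences are from the GENCODE M21 transcripts, with the kept intron in capitals between 15 bases of each neighbouring exon.
Nr1h3 intron 5: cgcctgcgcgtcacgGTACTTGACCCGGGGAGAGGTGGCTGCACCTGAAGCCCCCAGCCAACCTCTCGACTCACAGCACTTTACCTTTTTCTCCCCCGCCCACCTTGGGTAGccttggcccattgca
Nr1h3 intron 6: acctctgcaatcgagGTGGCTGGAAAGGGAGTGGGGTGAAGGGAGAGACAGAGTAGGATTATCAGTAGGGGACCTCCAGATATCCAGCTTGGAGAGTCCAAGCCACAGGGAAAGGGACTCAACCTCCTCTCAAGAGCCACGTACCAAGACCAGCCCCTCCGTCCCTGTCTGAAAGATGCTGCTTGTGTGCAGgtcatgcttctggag
Nr1h2 intron 6: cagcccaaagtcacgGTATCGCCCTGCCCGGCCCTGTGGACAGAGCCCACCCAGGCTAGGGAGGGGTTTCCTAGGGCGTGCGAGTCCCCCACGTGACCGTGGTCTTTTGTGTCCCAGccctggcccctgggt
Lpcat3 intron 10: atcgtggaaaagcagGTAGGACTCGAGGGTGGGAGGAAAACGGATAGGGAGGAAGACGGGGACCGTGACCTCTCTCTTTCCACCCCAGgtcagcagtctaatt
Across the 10 genes, 9 of 19 annotated retained-intron transcripts held 11 whole introns of a coding transcript. In each comparison with a coding transcript, 13 in all, the kept stretch opened with GT and closed with AG, the usual splice-site bases. In the remaining retained-intron transcripts no whole intron of a coding transcript was found. Among them were the only one of Abcg1 and several of Lpcat3. A share of TPM in retained-intron transcripts is therefore not a measure of whole introns kept.

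The share of retained-intron transcripts varied widely among the 10 genes. At least 20% of TPM was in retained-intron transcripts for 4 of the 10 genes, Nr1h2, Nr1h3, Abcg1 and Lpcat3, against 53.9% of 10632 protein-coding genes of at least 1 TPM. The read-based table added Pltp for 5 of 10, against 53.2%. The median share was 16.9% over the 10 genes and 25.6% over the 10632. A retained-intron transcript was annotated for 6 of the 10 genes and for 61.9% of the 10632, and the share can only be 0 in a gene without one. A retained-intron transcript was the leading one by mean TPM for 2 of 10, Nr1h3 and Abcg1, against 27.6%. In the read-based table it was so for Nr1h3 and Lpcat3, against 30.9%, since there the coding Abcg1-205 led Abcg1, as it also did in replicate 1 of the alignment-based table. The counts of genes past 20% and of leading transcripts were thus not above those of protein-coding genes at large. Such shares depend on how the authors' tools divided reads common to several isoforms.

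**Figure D2:**
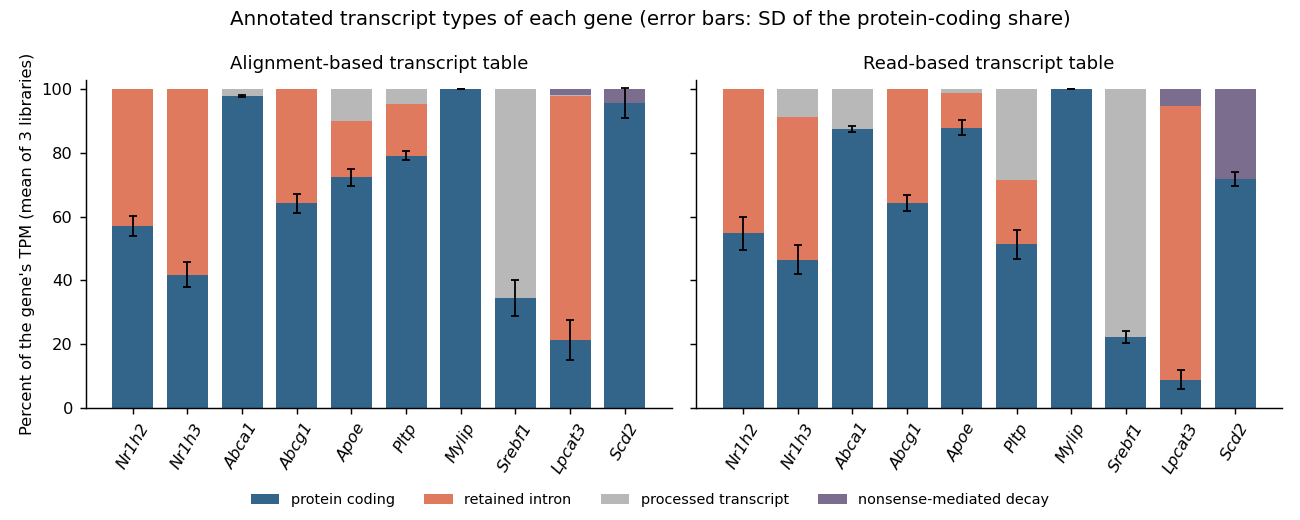
Percent of each gene's TPM in 4 annotated transcript types, as the mean of 3 libraries, in the alignment-based (left) and read-based (right) transcript tables, with error bars for the SD of the protein-coding share. Retained-intron transcripts hold 58.3% of Nr1h3 and 76.6% of Lpcat3 in the left panel, and processed transcripts hold 65.7% of Srebf1.

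The cholesterol exporters had the highest levels of the 10 genes. Abca1 (ENSMUSG00000015243.4, chr4:53030787-53159895, minus strand) moves cholesterol and phospholipid to lipid-poor apolipoprotein A-I, and had 95.61, 135.32 and 118.90 TPM from 11758, 20906 and 23141 counts. Its level was lowest in replicate 1 and highest in replicate 2 on all 5 scales, a 1.42-fold range in TPM. The 50-exon transcript Abca1-201 led with 93.51, 132.82 and 116.13 TPM, and protein-coding transcripts took 97.9% ± 0.25 of its TPM, and 87.6% ± 0.96 in the read-based table. Abcg1 (ENSMUSG00000024030.7, chr17:31057675-31117988, plus strand) passes cholesterol on to mature high-density lipoprotein, and had 97.60, 100.38 and 80.99 TPM from 3110, 3644 and 4028 counts. Abcg1 was lowest in replicate 3 on all 5 scales. The ranges of the exporters overlapped: the ratio of Abca1 to Abcg1 was 0.980, 1.35 and 1.47 in replicates 1, 2 and 3. In the read-based table it was 0.782, 1.03 and 1.14, with means of 125 ± 19.9 TPM for Abca1 and 129 ± 14.6 TPM for Abcg1, so their order turned with the table.

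Unlike Abca1, Abcg1 was spread over 3 transcripts of unlike extent with similar TPM. The retained-intron transcript Abcg1-202 had 31.60, 37.72 and 30.32 TPM, the 3-exon coding transcript Abcg1-205 had 33.60, 33.39 and 23.31 TPM, and the 15-exon transcript Abcg1-201 had 32.40, 29.27 and 27.02 TPM. Abcg1-202 and Abcg1-205 end 41.1 and 25.9 kb from the start of the gene, while Abcg1-201 reaches its end at 60.3 kb. In counts, which are not scaled by length, the full-length Abcg1-201 took 72.7% and the retained-intron transcripts 12.4%, against 35.8% ± 2.96 of TPM. An rRNA-type gene within Abcg1 on the same strand, Gm25447, had 5, 2 and 0 counts. Those few counts were listed as 206, 115 and 0 TPM, which shows how far TPM can go for a very short feature.

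**Figure D3:**
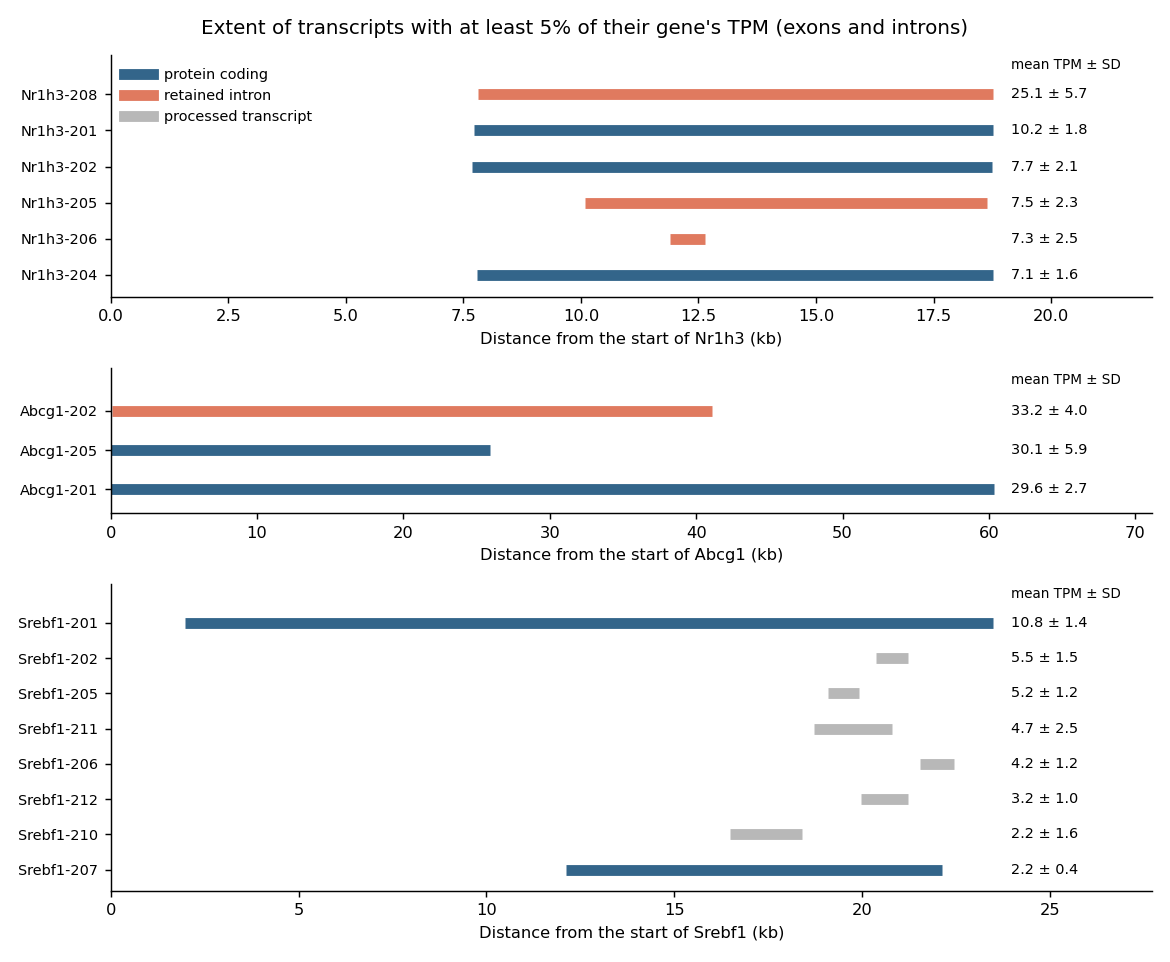
Extent in kb from the start of the gene, in the direction of transcription, of each transcript that took at least 5% of the TPM of Nr1h3, Abcg1 or Srebf1, drawn from first to last base with introns and coloured by type. Numbers at the right give mean TPM and SD of 3 libraries, such as 25.1 ± 5.7 for Nr1h3-208, the highest of Nr1h3.

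The carriers that take up exported lipid were expressed at intermediate levels. Apoe (ENSMUSG00000002985.16, chr7:19696109-19699188, minus strand) encodes apolipoprotein E, which macrophages secrete to accept cholesterol, and had 40.06, 52.18 and 45.50 TPM from 412, 629 and 738 counts. Pltp (ENSMUSG00000017754.13, chr2:164839518-164857711, minus strand) encodes the phospholipid transfer protein, which remodels high-density lipoprotein, and had 65.88, 85.99 and 68.61 TPM from 1112, 1769 and 1744 counts. Both were highest in replicate 2 on all 5 scales. Their lowest library was replicate 1 in TPM, but Pltp was lowest in replicate 3 on the other 4 scales and Apoe on 1 of them, the read-based table. The read-based mean of Pltp, 112 ± 24.2 TPM, was 1.53 times its alignment-based mean of 73.5 ± 10.9. The leading Pltp transcript also differed between the tables, being the 16-exon Pltp-201 in one (30.84, 43.60 and 36.24 TPM) and Pltp-206 in the other (34.7, 38.4 and 22.4 TPM). Pltp shares 1515 bases with Ctsa on the opposite strand, which had 267, 267 and 284 TPM. The labels and headers do not say if counting was strand-aware, and without strand the reads of that stretch cannot be told apart. The part of the overlap in the difference between the tables was not tested.

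Mylip (ENSMUSG00000038175.10, chr13:45389742-45412022, plus strand), also called Idol, encodes a ubiquitin ligase that lowers cholesterol uptake. It had 19.28, 15.99 and 21.43 TPM from 685, 698 and 1188 counts. Mylip was highest in replicate 3 and lowest in replicate 2 on all 5 scales, unlike Abca1, Apoe, Pltp, Srebf1 and Scd2, which were highest in replicate 2. The coding transcript Mylip-201 led with 19.08, 15.52 and 20.89 TPM, 97.9% of the gene. In the read-based table it held 69.0%, and a second coding transcript, Mylip-202, held 31.0% with 8.33, 7.34 and 8.57 TPM.

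Srebf1 had the widest spread of the 10 genes in TPM and in rescaled TPM. Read-based TPM spread most for Nr1h3 (1.66-fold against 1.49-fold for Srebf1), and counts scaled by TMM or DESeq2's size factors spread most for Scd2 (1.63-fold against 1.43-fold with TMM). The gene encodes SREBP-1, the transcription factor that drives fatty acid synthesis (ENSMUSG00000020538.15, chr11:60199089-60222581, minus strand), and had 29.21, 51.31 and 40.45 TPM from 666, 1141 and 1326 counts. Replicate 2 was 1.76 times replicate 1, and that order held on all 5 scales. The gene has alternative starts: an upstream one for SREBP-1a and a downstream one for SREBP-1c, the form known to be under LXR control. Their RefSeq starts lie 10.2 kb apart, at positions 60220627 and 60210471 of chromosome 11. Transcripts from the upstream start (Srebf1-201) had 9.19, 11.55 and 11.62 TPM, and those from the downstream start (Srebf1-207 and Srebf1-208) had 1.97, 2.63 and 2.08 TPM. They rested on 469, 734 and 936 counts for Srebf1-201 and on 73.2, 121 and 121 for Srebf1-207. By these transcript models the upstream form was 4.66, 4.39 and 5.59 times as high (4.88 ± 0.63, SD, n = 3), and the groups of 3 values did not overlap. The models differ in extent: Srebf1-201 has 4299 bases and ends 23.5 kb from the gene's start, Srebf1-207 has 3177 and ends at 22.1 kb. Reads beyond 22.1 kb could not be assigned to Srebf1-207, whichever start they came from. The ratio is therefore not a measure of how often each start was used. Srebf1 also shares 109 bases with Rai1 on the opposite strand, which had 17.0, 20.0 and 20.6 TPM. The part of this overlap in the ratio was not tested. The read-based table gave 6.92, 8.88 and 9.17 against 3.71, 4.99 and 3.80 TPM, a ratio of 2.02 ± 0.34. More TPM was assigned to the upstream form in every library of both tables, while the ratio differed between the tables by more than its spread. A start farther upstream, at position 60222581, belongs to the noncoding transcript Srebf1-204. It had 0, 0 and 0.56 TPM, but 5.39, 8.70 and 6.33 TPM in the read-based table, above the downstream start in all 3 libraries. The window of the downstream start is the one printed above with a match to the LXR repeat, and no match was found at the upstream starts.

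By TPM most of Srebf1 was assigned to none of these starts, but by counts most went to the transcript of the upstream start. The 8 transcripts that begin inside the gene body held 67.3% of its TPM, and 66.4% in the read-based table. By type, processed transcripts, which are noncoding models, held 65.7% ± 5.64, and 77.7% ± 1.80 in the read-based table. The highest of them in the alignment-based table were Srebf1-202 (3.89, 6.69 and 6.07 TPM), Srebf1-205 (4.10, 6.40 and 5.0 TPM), Srebf1-211 (2.97, 7.57 and 3.62 TPM) and Srebf1-206 (3.23, 5.49 and 3.96 TPM). These transcripts are 516 to 945 bases long and lie in the 3′ part of the gene, from 18.7 kb onward. Another processed transcript, Srebf1-210, led the gene in the read-based table with 8.69, 11.65 and 10.21 TPM, against 0.40, 3.10 and 3.22 TPM in the alignment-based table. In counts, which are not scaled by length, the full-length Srebf1-201 of the upstream start took 68.3% of the gene. Srebf1-207 of the downstream start took 10.1% of counts, and processed transcripts 18.8% ± 4.07. The large share of processed transcripts was thus one of TPM, which is scaled up for short transcripts.

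Lpcat3 was the lowest and the most even of the 10 genes in TPM. Mylip and Scd2 were lower by mean in the read-based table. In rescaled TPM and scaled counts Nr1h2 was more even (1.03-fold against 1.12-fold in rescaled TPM). The Lpcat3 enzyme inserts polyunsaturated fatty acids into phospholipids (ENSMUSG00000004270.13, chr6:124663027-124704418, plus strand), and it had 17.17, 16.28 and 16.49 TPM from 169, 208 and 285 counts, a 1.05-fold range. The read-based mean, 28.8 ± 0.664 TPM, was 1.73 times the alignment-based mean of 16.6 ± 0.465, the highest such ratio of the 10. Retained-intron transcripts held 80.0, 77.9 and 71.8% of its TPM, and 46.2% of its counts. In the read-based table the short Lpcat3-207, a retained-intron transcript near the 3′ end, led with 11.1, 11.5 and 12.3 TPM, while the coding Lpcat3-201 led by mean in the other with 2.72, 3.22 and 4.65 TPM. Lpcat3 shares 334 bases with Emg1 on the opposite strand. Scd2 (ENSMUSG00000025203.6, chr19:44293674-44306864, plus strand), a desaturase that makes monounsaturated fatty acids, had 20.34, 32.62 and 24.93 TPM from 1333, 2603 and 2427 counts. Replicate 2 was 1.60 times replicate 1, and this order too held on all 5 scales. Nonsense-mediated decay transcripts of Scd2 held 0, 3.71 and 9.35% of TPM but 26.1, 30.4 and 27.9% in the read-based table.

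By mean TPM the order was Abca1, Abcg1, Pltp, Nr1h3, Nr1h2, Apoe, Srebf1, Scd2, Mylip and Lpcat3. Of the 9 pairs of neighbours, only Nr1h2 and Apoe had ranges that did not overlap, so most of this order lies within the spread of the libraries. In the read-based table the order was Abcg1, Abca1, Pltp, Nr1h3, Srebf1, Nr1h2, Apoe, Lpcat3, Mylip and Scd2, and 3 of 9 pairs were apart: Pltp and Nr1h3, Nr1h2 and Apoe, and Apoe and Lpcat3. Read-based means were at least 1.5-fold above alignment-based means for 2 genes, Pltp and Lpcat3, against 37.5% of 11745 protein-coding genes, and at least 1.5-fold below for 0, against 0.775%. The median ratio of the tables was 1.23 for the 10 genes and 1.31 for the 11745.

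The libraries did not move all the genes together. In TPM, 6 of the 10 were highest in replicate 2 (Abca1, Abcg1, Apoe, Pltp, Srebf1 and Scd2), against 28.7% of 15873 detected genes. The same 6 were highest there in the read-based table, against 31.5%. Nr1h3 and Lpcat3, 2 of 10, were highest in replicate 1, against 38.9%, and Nr1h2 and Mylip, 2 of 10, in replicate 3, against 31.7%. Replicate 1 was lowest for 6 of 10 (Nr1h2, Abca1, Apoe, Pltp, Srebf1 and Scd2), against 34.3%. The full order of replicate 2 above 3 above 1 was that of 5 targets, Abca1, Apoe, Pltp, Srebf1 and Scd2, against 17.8%. On all 5 scales this order held for Abca1, Srebf1 and Scd2. Apoe left it in the read-based table and Pltp on the 4 scales other than TPM. Abcg1 was highest in replicate 1 in rescaled TPM and in counts scaled by TMM or DESeq2's size factors. The order was the reverse of the order of RNA used for the libraries, which was 1000, 250 and 500 ng in replicates 1, 2 and 3, and the part of the input in these values was not tested. The median difference of a library from the mean of the other two was -0.16, 0.23 and -0.01 (log2) for the 10 genes, and -0.00, -0.03 and 0.03 for detected protein-coding genes. Since each library is a single sample, libraries were not tested against each other. The median SD was 0.20 (log2(TPM + 1)) against 0.16 for protein-coding genes. The biological coefficient of variation that edgeR estimated was 0.115 to 0.182, with a median of 0.142, against 0.157 for all detected genes. These estimates are drawn toward those of other genes, so they differ less than the SDs. Lpcat3 and Srebf1 had 0.127 and 0.152, while their SDs were 0.038 and 0.398 (log2(TPM + 1)). The lower median is therefore no sign that the 10 genes varied less than others.

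**Figure D4:**
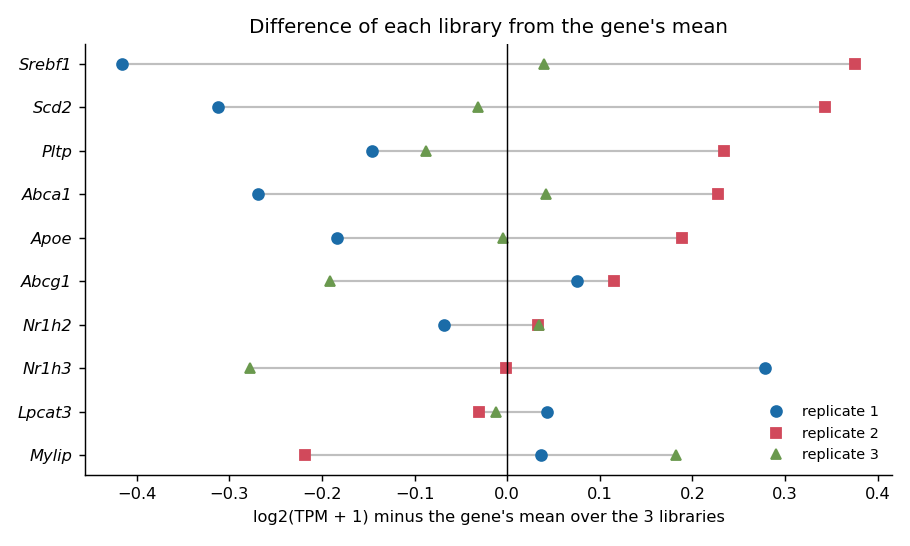
Difference of each library from the gene's mean over 3 libraries, in log2(TPM + 1), for the 10 genes sorted by the value of replicate 2. Replicate 2 lies highest for 6 genes from Abcg1 to Srebf1, while Nr1h3 is highest in replicate 1 and Mylip in replicate 3.

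Likeness over only 3 libraries is a loose measure, as the number of near genes shows. By the distance between centred log2(TPM + 1), the genes nearest to Abca1 were Msrb1 (0.0037), Eps8 (0.0071) and Def8 (0.0079), and 388 of 11745 genes lay within 0.1. Those nearest to Nr1h3 included Rps7 (0.0039) and Tac4 (0.0055), with 111 genes within 0.1.

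The partners of the receptors were nearly all present. Of 14 partner and coregulator genes, 13 reached a mean of 1 TPM. The corepressor gene Ncor1 was highest at 214.61, 204.99 and 213.83 TPM, and Rxra, a retinoid X receptor, was the lowest detected at 8.48, 9.87 and 9.91 TPM. Rxrb had 17.6 ± 0.957 TPM and Rxrg 0 counts in all 3 libraries. Both detected RXR genes thus lay below Nr1h2 and Nr1h3 in every library.

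Of 9 genes that make or break down oxysterols, 3 reached a mean of 1 TPM, and 6 did in the read-based table. Cyp27a1, which makes 27-hydroxycholesterol, was highest at 32.65, 51.09 and 44.14 TPM. Replicate 2 was highest for 4 of 4 detected genes of this list, against 28.7% of all detected genes, and for 3 of 4 in the read-based table, against 31.5%. Ch25h, whose enzyme makes 25-hydroxycholesterol and which was named after its values were seen, had 2, 1 and 3 counts. Cyp7b1 and Cyp11a1 had 0 counts, although the read-based table listed Cyp11a1 at 1.90 TPM.

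Of 18 other genes described as LXR targets, 11 reached a mean of 1 TPM. Mertk, a receptor for the uptake of dead cells, was highest at 125.58, 132.09 and 124.25 TPM. Plin2, a lipid droplet coat gene, was higher in the read-based table, at 204 ± 11.8 TPM against 134 ± 8.37. Arl4c, a small GTPase gene, was the lowest detected at 2.91, 5.83 and 6.01 TPM, and Abcg5 and Apoc4 had 0 counts, although the read-based table listed Apoc4 at 12.9 TPM. The 11 detected genes were highest in replicate 1, 2 and 3 for 1, 5 and 5 genes, against 38.9, 28.7 and 31.7% of all detected genes.

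Of 13 lipogenic genes that SREBP-1c drives, 9 reached a mean of 1 TPM, and 7 of the 10 detected were highest in replicate 2, against 28.7% of all detected genes. This held for 6 of 10 in the read-based table, against 31.5%. Acly, which makes cytosolic acetyl-CoA, was highest at 31.23, 39.06 and 34.66 TPM, and Me1, malic enzyme, the lowest detected at 0.330 ± 0.0265 TPM. Fasn, whose window is printed above, had 5.71, 13.23 and 7.21 TPM from 384, 1071 and 854 counts. Its replicate order was that of Srebf1, Scd2 and Abca1. Scd1, the paralog of Scd2, had only 0.233 ± 0.152 TPM against 26.0 ± 6.20 for Scd2, so Scd2 was the higher of these desaturase genes in all 3 libraries.

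Of 14 genes for other steps of cholesterol handling, 12 reached that level. Npc2, which carries cholesterol out of lysosomes, was highest at 174.93, 132.68 and 154.78 TPM, and Gramd1c the lowest detected at 0.340 ± 0.0458 TPM. Soat1, which esterifies cholesterol, was higher by mean in the read-based table, at 180 ± 37.0 against 151 ± 20.0 TPM for Npc2, and their ranges overlapped. In contrast to Abca1, Npc2 was lowest in replicate 2. The 13 detected genes were highest in replicate 1, 2 and 3 for 5, 5 and 3 genes, against 38.9, 28.7 and 31.7% of all detected genes.

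**Figure D5:**
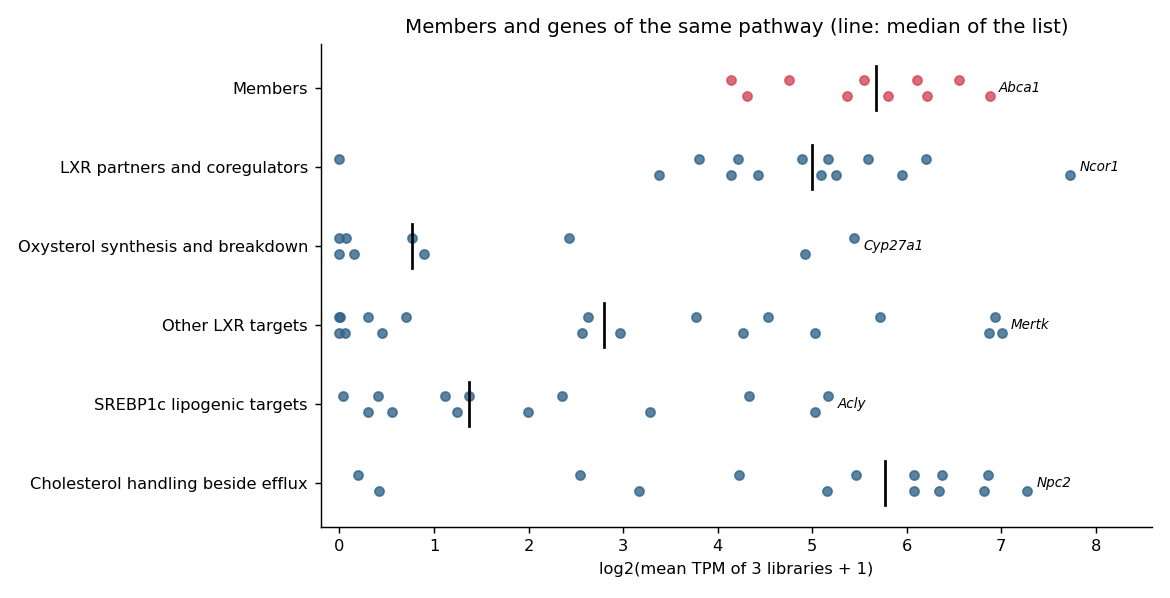
Mean level of 3 libraries (log2(TPM + 1)) of the 10 genes (red) and of 5 lists of genes from the same pathway (blue), each point 1 gene, with a line at the median of the list and the highest gene named. The 10 genes all lie above 4 on this scale, while each of the 5 lists also holds genes near 0.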

How the data were processed

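Total RNA of the chromatin fraction was sequenced in 3 libraries of 1 group, and each library had 3 deposited tables. The authors' gene table and alignment-based transcript table, per the file headers, hold expected counts and TPM on mm10 with GENCODE release M21. The deposited read-based transcript table holds estimated counts and TPM derived from the reads without that alignment. Aligner, counter, their versions and the use of strand are not given in the sources used here. Levels are deposited TPM values, which fall for all genes when short or abundant RNAs take more of a library.

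Rows of no annotated gene (1.24, 0.482 and 0.228% of expected counts in replicates 1, 2 and 3) were left out. Detected genes are those whose expected counts average 10 or more. Levels were compared as log2(TPM + 1), which understates differences of low genes, and transcript values of the read-based table were summed per gene, to totals of 22932126, 30318511 and 40873541 estimated counts. A deeper library gives a more precise value. The lowest gene, Lpcat3, had 169 counts in the shallowest library. After rounding the expected counts to integers, edgeR 4.0.16 gave TMM factors and dispersions (intercept-only model), and DESeq2 1.42.0 gave size factors, in R 4.3.3. The remaining work was done in Python 3.11.15, numpy 2.4.6, pandas 2.3.3 and matplotlib 3.10.9. With 1 group there was no comparison of conditions to test, so values are descriptions. Only the dispersion estimate and the difference of replicate 1 from the others, in TMM-scaled counts, were tested on simulated data. The remaining steps were not.

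The genes and lists were chosen with earlier results of these data known. The text names all 10 genes, the highest and the lowest detected gene of each list and genes at 0 counts, the 3 genes most like Abca1 and Nr1h3, and the leading transcripts. A few genes taken by this rule are not reported here. Fasn, Scd1, Rxrb, Plin2 and Soat1 were named after their values were seen. Alternatives were the read-based table, TPM rescaled without features under 200 nt and rRNA-like genes, a pseudocount of 0.1, TMM and DESeq2 scaling, no count filter, a retained-intron threshold of 10%, shares of counts, and leaving out each replicate. The count of genes highest in replicate 2 and the ratio of Srebf1 starts were added after seeing the data.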

Additional observations from a re-analysis of the deposited data

How the results depend on the processing

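Of 46 alternatives to the main values, 44 stayed within the spread of the libraries or within 1.5 times the main count, and none changed sign. Some of the 44 could not have moved and show nothing about robustness. The count filter removed none of the 10 genes, so leaving it out repeated the main values. Rescaling cannot change a ratio within a library. All 10 genes lay far above 1 TPM in each library, so leaving out a replicate could not change that count. Leaving out 1 of 3 values shifts their mean by less than their SD, whatever the values. The median level and the log2 ratio of the receptors were thus bound to stay within the spread when a replicate was left out. The exceptions were the median level, which was 6.57 (log2(TPM + 1)) in rescaled TPM because the rescaling adds 0.97, 0.91 and 0.86 to every gene in replicates 1, 2 and 3, and the genes highest in replicate 1, of which there was 1 in the read-based table against 2. Leaving out each replicate gave median levels of 5.61 to 5.73, a log2 ratio of Nr1h3 to Nr1h2 of 0.11 to 0.45, a median SD of 0.16 to 0.23, 4 to 5 genes past a retained-intron share of 20%, and 10 genes at 1 TPM each time. The lowest receptor ratio was the one without replicate 1. Among single genes, 16 of 50 level alternatives moved by more than the spread, 10 under rescaling and 6 in the read-based table. The result of 0 on leaving out a replicate was fixed in advance, as said above. Of 30 retained-intron shares 8 moved, and those without a replicate could not move either. The ratio of Srebf1 starts was 2.02 in the read-based table, 6.74 in counts and 2.83 in read-based counts, against 4.88, and the cause was not tested. No paired analysis was possible because there is 1 group. Shares of isoforms rest on few counts for Lpcat3, whose gene total was 169 to 285.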
